A study of Mus musculus with 9 samples.

Results

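The 8 genes described here encode the core of MHC class II antigen presentation: the antigen-binding chains H2-Aa, H2-Ab1 and H2-Eb1, the peptide exchange chains H2-DMa and H2-DMb1, the invariant chain Cd74, the transactivator Ciita and the protease Ctss. They were taken by symbol from the count tables, and they are 8 of the 52160 gene symbols that both deposited tables shared. All 8 passed the filter on low counts, as did 18067 genes in all.

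MHC class II molecules are pairs of an alpha and a beta chain that show peptides from ingested proteins to CD4+ T cells. In most tissues they are made by dendritic cells, macrophages and B cells, and kidney tubule epithelium can make them when exposed to interferon gamma. The chains assemble in the endoplasmic reticulum with the invariant chain, which blocks the peptide groove and guides the complex to endosomes. There cathepsin S, the product of Ctss, trims the invariant chain, and the H2-DM dimer exchanges the remaining fragment for antigenic peptide. Ciita is recruited to factors that sit on conserved promoter elements called the X box and the Y box, and it switches on class II genes that carry both. Y-box binding protein 1, the product of Ybx1, belongs to a protein family that was named for binding to the Y box of human MHC class II promoters.

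The mice were C57Bl/6N and 16 weeks old, and each of the 9 libraries held polyadenylated whole-kidney RNA. There were 3 libraries in each of 3 groups, namely wild-type mice (WT), mice whose podocytes lack Ybx1 (Ybx1ΔPod, ΔPod below) and mice whose podocytes make a Ybx1 that cannot be secreted (Ybx1K2A, K2A below). K2A mice carry K299A and K302A in exon 7 of Ybx1, changes of the lysines needed for its release after acetylation. Both alterations affect podocytes, which cover the capillaries of the glomerulus and make up a small share of kidney cells. The labels do not name the driver of the deletion, whether each library came from a separate animal, or the sex. Total counts ran from 30776806 to 46852490 per library.

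Ybx1 itself, measured in whole kidney, stood at 1190, 1585 and 1185 CPM in WT 1, 2 and 3. It stood at 1167, 881 and 605 CPM in ΔPod 1, 2 and 3 and at 1078, 1152 and 554 CPM in K2A 1, 2 and 3. CPM are counts scaled to a common library size with TMM factors. Neither mutant group overlapped WT, as for 18.2% of tested genes in ΔPod and 20.1% in K2A. Neither difference passed edgeR's quasi-likelihood test (adjusted p = 0.465 in ΔPod and 0.725 in K2A). Transcripts of 4 Y-linked genes summed to between 94.4 and 119 CPM in WT, to 0 in ΔPod and to at most 0.682 in K2A, so that sex and genotype cannot be told apart. The libraries also differed in whether longer or shorter transcripts took more of the counts. WT 1, WT 3, ΔPod 3 and K2A 3 had relatively more counts on longer transcripts (slopes of log2 CPM on log2 transcript length of 0.20 to 0.30). WT 2, ΔPod 1, ΔPod 2, K2A 1 and K2A 2 had relatively more on shorter ones (slopes of -0.38 to -0.06). Adipocyte markers summed to 538, 141, 467 and 1238 CPM in ΔPod 1, ΔPod 2, K2A 1 and K2A 2, against 24.5 to 80.1 CPM in the remaining 5 libraries. A single marker, Fabp4, made up 134 of the 141 CPM in ΔPod 2 and 79.5 of the 80.1 CPM in WT 2. The marker Cfd stood at 3.70 CPM in ΔPod 2, against 0.0403 to 0.148 CPM in the remaining 5. K2A 3, among those 5, held 21.2 CPM of the marker Plin4.

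The H2 genes lie in the class II region of mouse chromosome 17 (build mm10, GENCODE annotation). H2-DMa spans positions 34119541 to 34139101, H2-DMb1 34153072 to 34160230, H2-Ab1 34257689 to 34269419 and H2-Eb1 34305867 to 34316674, all on the plus strand. H2-Aa spans 34282744 to 34287823 on the minus strand. Ciita lies on chromosome 16 (10480059 to 10528418) and Ctss on chromosome 3 (95526786 to 95556403). Promoter sequences from RefSeq (GRCm38.p6), covering 250 bases before and 50 bases after the start, were matched by symbol for 5 of the 8 genes: H2-Aa, H2-Eb1, H2-DMa, H2-DMb1 and Ctss. The stretches below are shown because they hold letters of the X box and Y box, the elements through which Ciita and its partners are known to act, and because the Y box gave the protein family of Ybx1 its name. They lie at chr17:34287824-34288073 (H2-Aa, minus strand) and chr17:34305617-34305866 (H2-Eb1, plus strand). For H2-DMb1, a pair of 30-base stretches on the plus strand is shown, at chr17:34153083-34153112 and chr17:34153117-34153146. All run 5′ to 3′, and capitals mark letters that match the X box motif CTNGNAAC or the Y box motif TGATTGG.
H2-Aa: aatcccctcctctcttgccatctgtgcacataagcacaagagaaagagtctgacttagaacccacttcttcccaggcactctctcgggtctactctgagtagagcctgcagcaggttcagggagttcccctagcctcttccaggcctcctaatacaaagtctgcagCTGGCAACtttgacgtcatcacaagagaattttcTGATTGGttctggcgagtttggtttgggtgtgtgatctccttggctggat
H2-Eb1: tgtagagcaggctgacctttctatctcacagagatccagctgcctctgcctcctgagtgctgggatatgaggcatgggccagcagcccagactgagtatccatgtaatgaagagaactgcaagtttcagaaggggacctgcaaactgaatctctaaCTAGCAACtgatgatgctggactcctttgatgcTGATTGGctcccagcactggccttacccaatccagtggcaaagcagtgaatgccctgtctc
H2-DMb1 X box: atgaggtttacCTAGTAACtgatgatgcta
H2-DMb1 Y box: gattcactcagTGATTGGtctgacctgcct

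Both motifs were searched on both strands, and their letters were chosen after these windows had been read. The X box motif was found in 13.2% and the Y box motif in 7.82% of the 32851 promoter windows of the same length. An X box followed by a Y box on the same strand, with starts at most 60 bases apart, was found in 20 windows (0.0609%). Of these, 4 belonged to class II genes, with 34 bases between the starts in H2-Aa, 33 in H2-Eb1, 34 in H2-DMb1 and 31 in H2-Ob, the beta chain of the H2-O dimer that restrains H2-DM. A Y box match was present in 7 of the 8 class II H2 genes that had a window, and the exception was H2-DMa. An X box match was present in 5 of the 8. A match describes letters in a window and does not show that a factor was bound in these kidneys.

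In WT kidney, levels per kilobase of annotated exon (RPKM, mean ± SD, n = 3) were highest for Cd74, at 139 ± 11.6. H2-Eb1 followed at 53.9 ± 10.8 and H2-Ab1 at 47.9 ± 11.6 RPKM, neighbours that did not differ beyond their spread, and H2-Aa stood at 27.8 ± 6.08 RPKM. Ctss at 11.7 ± 1.18 and H2-DMb1 at 8.47 ± 2.01 RPKM stood below these, with overlapping libraries, and H2-DMa stood at 2.76 ± 0.677 RPKM. Ciita, which encodes the transactivator, was the lowest at 0.386 ± 0.116 RPKM, which corresponded to between 101 and 199 counts in a WT library. The length used is the union of all annotated exons, which is 3798 bases for H2-Aa, 2568 for H2-Ab1, 1944 for H2-Eb1 and 9535 for Ciita. Mean levels were again highest for Cd74 in ΔPod (83.8 ± 60.5 RPKM) and K2A (93.8 ± 21.3 RPKM), followed by H2-Eb1 (64.6 ± 17.3 and 66.4 ± 39.6 RPKM), H2-Ab1 (62.1 ± 21.6 and 63.6 ± 40.3 RPKM) and H2-Aa (27.0 ± 4.6 and 27.7 ± 15.8 RPKM). H2-DMb1 (16.5 ± 7.79 and 16.6 ± 7.31 RPKM) had a higher mean than Ctss (12.6 ± 4.56 and 10.9 ± 3.47 RPKM) in both, within their spread. H2-DMa (3.48 ± 1.02 and 3.89 ± 2.03 RPKM) and Ciita (0.282 ± 0.149 and 0.311 ± 0.0925 RPKM) were lowest, so the order of the means was otherwise that of WT. In ΔPod 1, however, Cd74 stood at 24.0 RPKM, below H2-Ab1 (78.1), H2-Eb1 (73.8) and H2-Aa (25.7 RPKM).

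In ΔPod kidney, none of the 8 genes passed edgeR's quasi-likelihood test after Benjamini-Hochberg adjustment over all tested genes. The count was 0 of 8, where 178 of 18067 genes (0.985%) passed, and 0 of 8 had an unadjusted p below 0.05, where 13.8% of genes did. DESeq2 also called 0 of the 8. The log2 fold changes were positive for 5 genes and negative for 3, with a median of 0.19, beside 0.08 over all genes. In no gene did the ΔPod libraries lie wholly above or below WT, as they did for 18.2% of genes. In K2A kidney the count was again 0 of 8, where 153 genes (0.847%) passed, and 0 of 8 had an unadjusted p below 0.05, where 10.6% of genes did. DESeq2 called 0 of the 8 there too. The log2 fold changes were positive for 4 and negative for 4, with a median of 0.15 beside 0.09 over all genes. The K2A libraries lay wholly outside WT for 1 gene, Cd74, as they did for 20.1% of genes. These comparisons share the WT libraries and are not independent. In whole-kidney RNA, fewer cells of a type and less RNA per cell cannot be told apart.

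**Figure D1:**
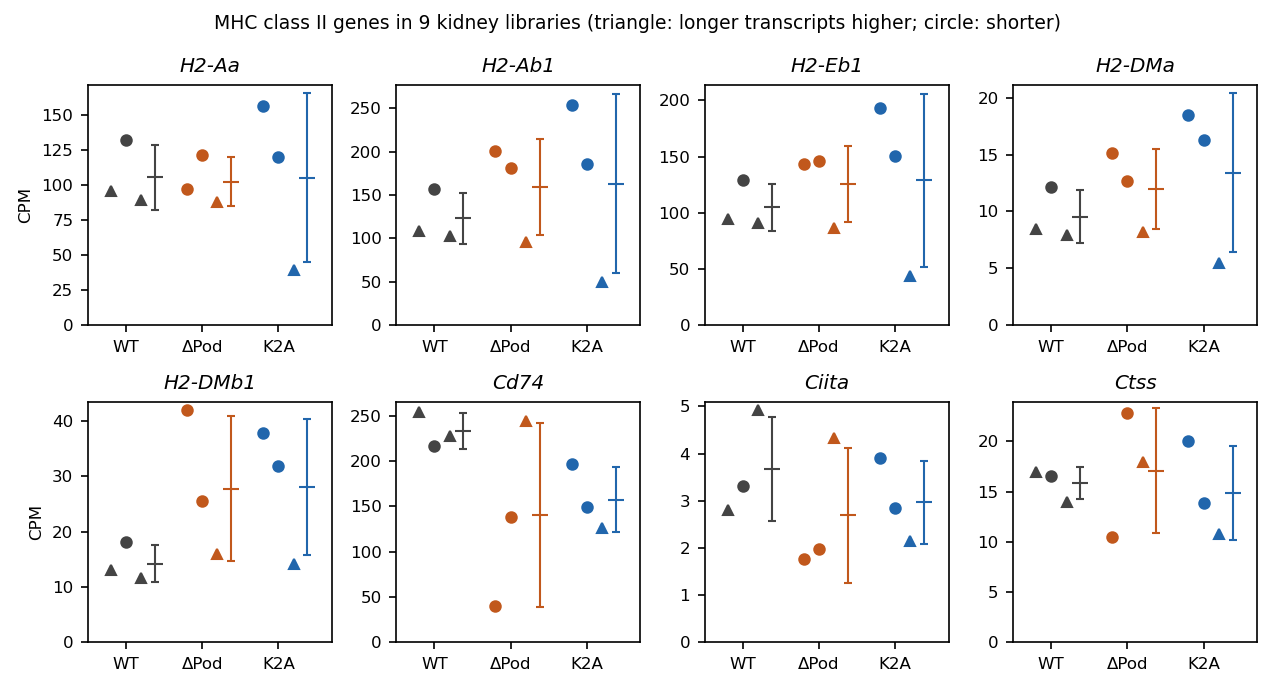
CPM of the 8 class II genes (vertical axes) in the 3 libraries of each group, with the mean and SD of the group to the right of its points. Triangles mark libraries with more counts on longer transcripts and circles those with more on shorter ones. H2-DMb1 reached 41.9 CPM in ΔPod 1, and Cd74 stood at 40.3 CPM in the same library.

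Among the antigen-binding chains, H2-Aa, the alpha chain of the I-A molecule, stood at 95.5, 132 and 89.2 CPM in WT 1, 2 and 3. It stood at 97.5, 122 and 87.9 CPM in ΔPod and at 157, 120 and 39.3 CPM in K2A. ΔPod 1 to 3 lay nearly within the range of WT, whereas K2A held both the highest and the lowest of the 9 libraries. The log2 fold change was -0.04 (SE 0.46) in ΔPod and 0.00 (SE 0.46) in K2A, with edgeR adjusted p-values of 0.963 and 0.998.

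H2-Ab1, the beta chain that pairs with H2-Aa, stood at 109, 157 and 103 CPM in WT. It stood at 200.5, 182 and 96.4 CPM in ΔPod, and at 253, 186 and 50.2 CPM in K2A. Libraries 1 and 2 of each mutant group lay above every WT library and library 3 of each lay below every WT library. In ΔPod the log2 fold change was 0.37 (SE 0.55) and in K2A it was 0.41 (SE 0.55), with edgeR adjusted p-values of 0.728 and 0.822.

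H2-Eb1, the beta chain of the I-E molecule, stood at 94.3, 129 and 90.9 CPM in WT, at 144, 146 and 86.8 CPM in ΔPod, and at 193, 150.3 and 43.7 CPM in K2A. Its order of libraries was close to that of H2-Ab1, with libraries 1 and 2 of both mutant groups above WT and library 3 below. Its log2 fold change was 0.26 (SE 0.50) in ΔPod and 0.30 (SE 0.50) in K2A, with edgeR adjusted p-values of 0.786 and 0.846. H2-Ea, whose promoter is deleted in C57BL/6 mice so that they lack surface I-E, had 0 counts in 8 libraries and 1 count in ΔPod 2.

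H2-DMa, the alpha chain of the peptide exchanger, stood at 8.46, 12.2 and 7.91 CPM in WT, at 15.2, 12.7 and 8.18 CPM in ΔPod, and at 18.5, 16.3 and 5.44 CPM in K2A. Again libraries 1 and 2 of both mutant groups exceeded WT, and K2A 3 was the lowest of all 9. In ΔPod the log2 fold change was 0.33 (SE 0.47) and in K2A it was 0.50 (SE 0.47), with edgeR adjusted p-values of 0.717 and 0.775.

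H2-DMb1, the beta chain of the same dimer, differed most of the 8 by log2 fold change in both comparisons with WT. It stood at 13.1, 18.0 and 11.5 CPM in WT, at 41.9, 25.4 and 16.0 CPM in ΔPod, and at 37.9, 31.9 and 14.2 CPM in K2A. Libraries 1 and 2 of each mutant group exceeded every WT library, and library 3 of each lay between WT 1 and WT 2, so the groups overlapped. The level in ΔPod was 1.95 times that in WT (95% interval 0.929 to 4.09), a log2 fold change of 0.96 (SE 0.47). In K2A it was 1.97 times that in WT (0.936 to 4.13), a log2 fold change of 0.97 (SE 0.47). Unadjusted p-values were 0.0718 and 0.0692, and edgeR adjusted p-values were 0.388 and 0.533. Without ΔPod 1 the log2 fold change in ΔPod was 0.53. H2-DMb2, a close copy of H2-DMb1 next to it on the chromosome, stood at 0.629 to 3.13 CPM. The handling of reads that match both is not stated, so the split between them is uncertain.

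Cd74, the invariant chain, lies on chromosome 18. It stood at 255, 217 and 227 CPM in WT, at 40.3, 138 and 244 CPM in ΔPod and at 197, 149 and 127 CPM in K2A. ΔPod ran from the lowest value of all 9 libraries, in ΔPod 1 with 1115 counts, to a value within the range of WT, in ΔPod 3. All 3 K2A libraries lay below all 3 WT libraries. The log2 fold change was -0.73 (SE 0.55, 95% interval -1.97 to 0.52) in ΔPod and -0.56 (SE 0.54, 95% interval -1.81 to 0.68) in K2A, with edgeR adjusted p-values of 0.512 and 0.777. Without ΔPod 1 the ΔPod value was -0.30, and without ΔPod 3 it was -1.41 (adjusted p = 0.0976). ΔPod 1 had the largest share of counts on ribosomal protein genes of the 9 libraries (7.77%, against 0.975% to 4.19% in the others). It also had the most negative slopes on transcript length and on GC content. The ΔPod value of Cd74 was -0.60 with the length slope as a covariate, -0.14 with the GC slope and 0.11 with both. ΔPod 1 was also the lowest library for endothelial markers (160.0 CPM in sum, against 277 to 582 in the others) and for proximal tubule markers (2264 CPM against 3200.1 to 14451). Urothelium markers summed to 44.8 CPM in it, against 5.76 to 10.2 CPM in WT. They summed to more in K2A 1 (55.4 CPM) and K2A 2 (67.6 CPM), whose Cd74 levels were 197 and 149 CPM. The part of these cell types in the Cd74 level of ΔPod 1 was not tested.

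Ciita stood at 2.8, 3.32 and 4.92 CPM in WT, at 1.77, 1.97 and 4.33 CPM in ΔPod and at 3.91, 2.85 and 2.15 CPM in K2A. ΔPod 1 and 2 lay below every WT library and ΔPod 3 within the WT range, and K2A overlapped WT. The log2 fold change was -0.45 (SE 0.44) in ΔPod and -0.31 (SE 0.44) in K2A, with edgeR adjusted p-values of 0.608 and 0.827. The ΔPod 1 value rests on 49 counts.

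Ctss stood at 16.9, 16.5 and 14.0 CPM in WT, at 10.5, 22.8 and 17.9 CPM in ΔPod and at 20.0, 13.8 and 10.7 CPM in K2A. Both mutant groups spread to either side of WT, whose 3 values lay close together. The log2 fold change was 0.11 (SE 0.36) in ΔPod and -0.09 (SE 0.36) in K2A, with edgeR adjusted p-values of 0.877 and 0.935.

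**Figure D2:**
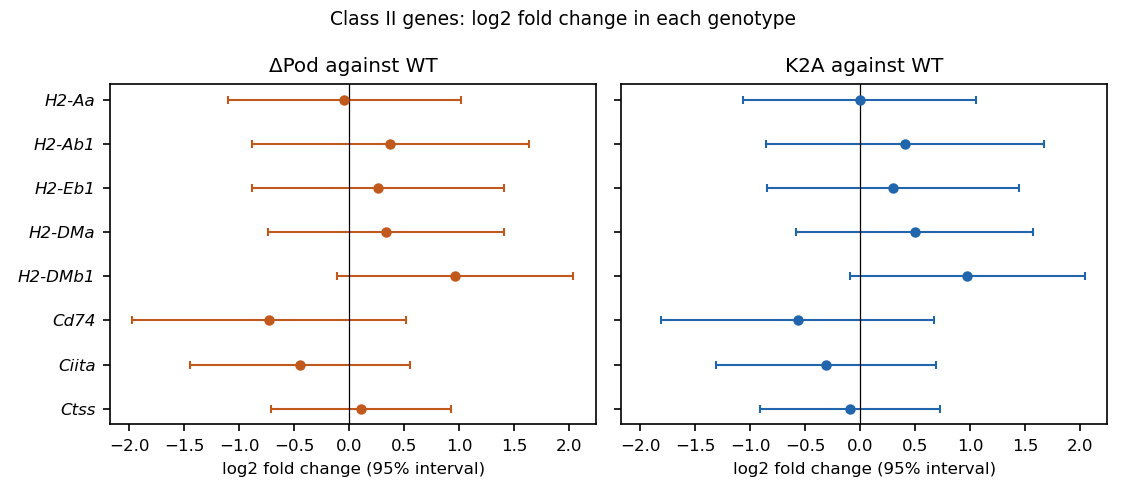
Log2 fold change of each class II gene (horizontal axis) in ΔPod (left) and K2A (right) against WT, with bars for the 95% interval from edgeR's quasi-likelihood fit. Every interval includes 0, and that of H2-DMb1 reaches it by the least, from -0.11 in ΔPod and -0.10 in K2A.

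In the direct comparison of K2A with ΔPod, 0 of the 8 genes passed edgeR's test, where 0 of 18067 genes (0.0%) passed, and 0 of 8 had an unadjusted p below 0.05, where 2.01% of genes did. DESeq2 called 0 of the 8, with 7 genes higher and 7 lower in all. The libraries of K2A and ΔPod overlapped for each of the 8, where they did not for 5.11% of genes. The log2 differences ran from -0.20 for Ctss to 0.16 for Cd74 and H2-DMa, with standard errors of 0.36 to 0.55. The 95% interval for Cd74 ran from -1.08 to 1.40 on the log2 scale. For H2-DMb1 it ran from 0.484 to 2.10 as a ratio, so these libraries do not exclude a difference within that range.

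The levels ran over wide ranges within the mutant groups. H2-Aa, H2-Ab1, H2-Eb1 and H2-DMa were all highest in K2A 1 and lowest in K2A 3. Cd74, Ciita and Ctss were each lowest in ΔPod 1, the library in which H2-DMb1 was highest. The K2A values for the antigen-binding chains turned on which library was included. Without K2A 1 the log2 fold changes against WT were -0.42 for H2-Aa, -0.07 for H2-Ab1 and -0.12 for H2-Eb1, and without K2A 3 they were 0.35, 0.79 and 0.67, none past edgeR's threshold. The 8 genes together summed to 549 to 685 CPM in WT, 551 to 651 CPM in ΔPod and 292 to 880 CPM in K2A.

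**Figure D3:**
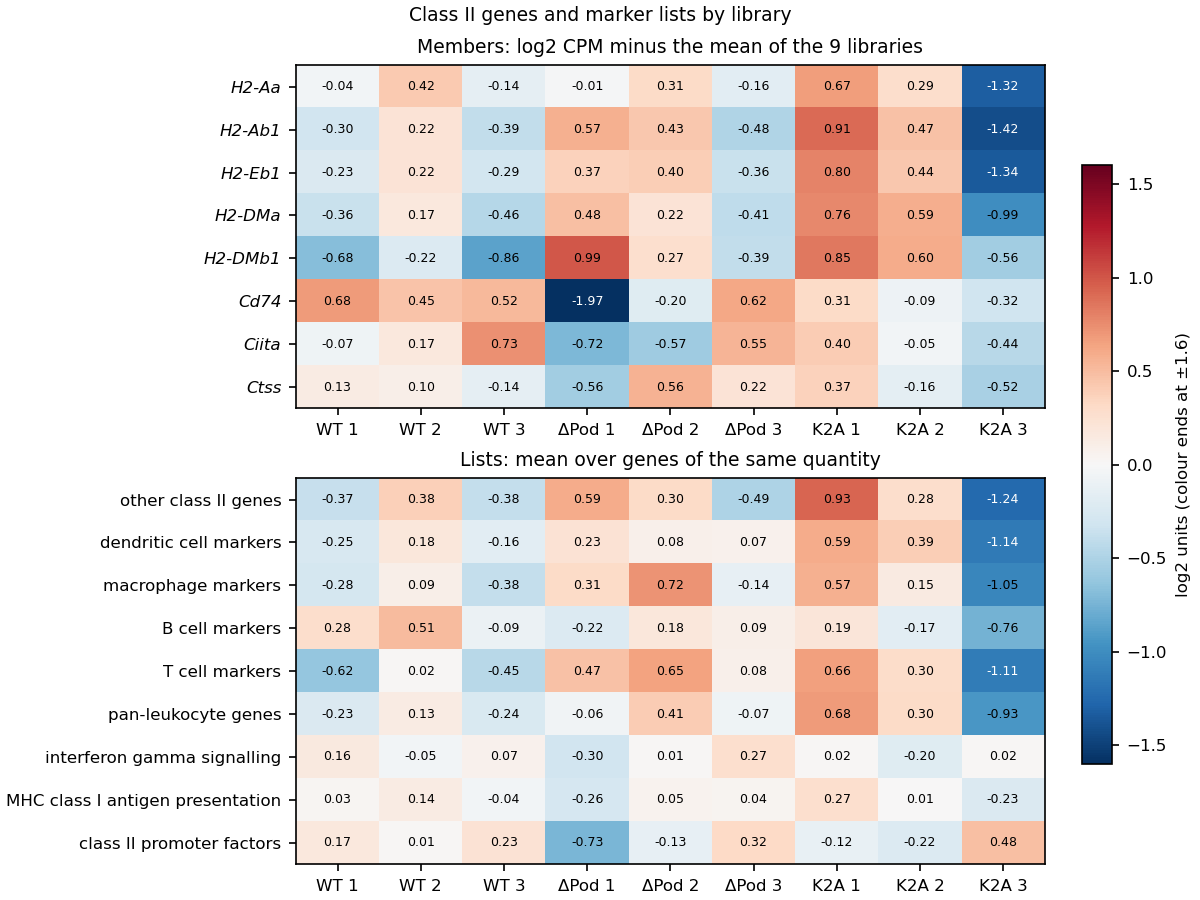
Log2 CPM minus the mean of the 9 libraries for the 8 class II genes (top, rows) and the mean of the same quantity over the genes of 9 lists (bottom, rows), by library (columns). Red is higher and blue lower. K2A 3 is low for the antigen-binding chains (-1.32 to -1.42) and for the dendritic cell, macrophage and T cell lists (-1.05 to -1.14), and ΔPod 1 is low for Cd74 (-1.97).

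For each of the 5 H2 genes, the 5 libraries with more counts on shorter transcripts ranked above the 4 with more on longer ones, so levels were also compared within each class. Among libraries with more counts on longer transcripts, ΔPod 3 stood at 0.91 to 1.3 times the mean of WT 1 and WT 3 for the 8 genes. K2A 3 stood at 0.425 times that mean for H2-Aa, 0.474 for H2-Ab1, 0.472 for H2-Eb1, 0.525 for Cd74 and 1.15 for H2-DMb1. This class holds 1 library of each mutant group. Among libraries with more counts on shorter transcripts, where WT 2 is the only WT library, ΔPod 1 and 2 averaged 0.412 times WT 2 for Cd74 and 1.87 times for H2-DMb1. K2A 1 and 2 averaged 0.798 times WT 2 for Cd74, 1.93 times for H2-DMb1, 1.40 times for H2-Ab1 and 1.05 times for H2-Aa. H2-DMb1 was thus above WT in both classes and in both genotypes, by less in the longer class. The shorter class is not closely matched. Its length slope was -0.06 in WT 2, against -0.38 to -0.14 in its ΔPod and K2A libraries.

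With the slope on transcript length as a covariate, the log2 fold change of H2-DMb1 was 0.41 in ΔPod and 0.51 in K2A. The K2A value then passed edgeR's test (adjusted p = 0.0340), where the same fit called 1351 genes higher and 1507 lower in K2A (15.8%). Under that covariate H2-Ab1 and H2-Eb1 turned to -0.21 each in ΔPod and -0.26 each in K2A, and neither passed. When only the libraries with more counts on longer transcripts were fitted, K2A 3 was lower than WT for H2-Aa (-1.22), H2-Ab1 (-1.06), H2-Eb1 (-1.07), H2-DMa (-0.57) and Cd74 (-0.91), all past the threshold. The same fit called 31.0% of 18228 genes in K2A. In that fit the spread comes from WT 1 and WT 3 alone, and the lone mutant libraries are assumed to vary like them. Leaving out the 4 libraries with the highest adipocyte sums leaves 1 library in each mutant group, ΔPod 3 and K2A 3, against 3 of WT. All 4 had more counts on shorter transcripts, so among mutant libraries adipocyte sums and length class cannot be told apart. In that fit H2-DMb1 stood at 0.18 in ΔPod 3 and 0.02 in K2A 3, and Cd74 at 0.08 and -0.86.

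**Figure D4:**
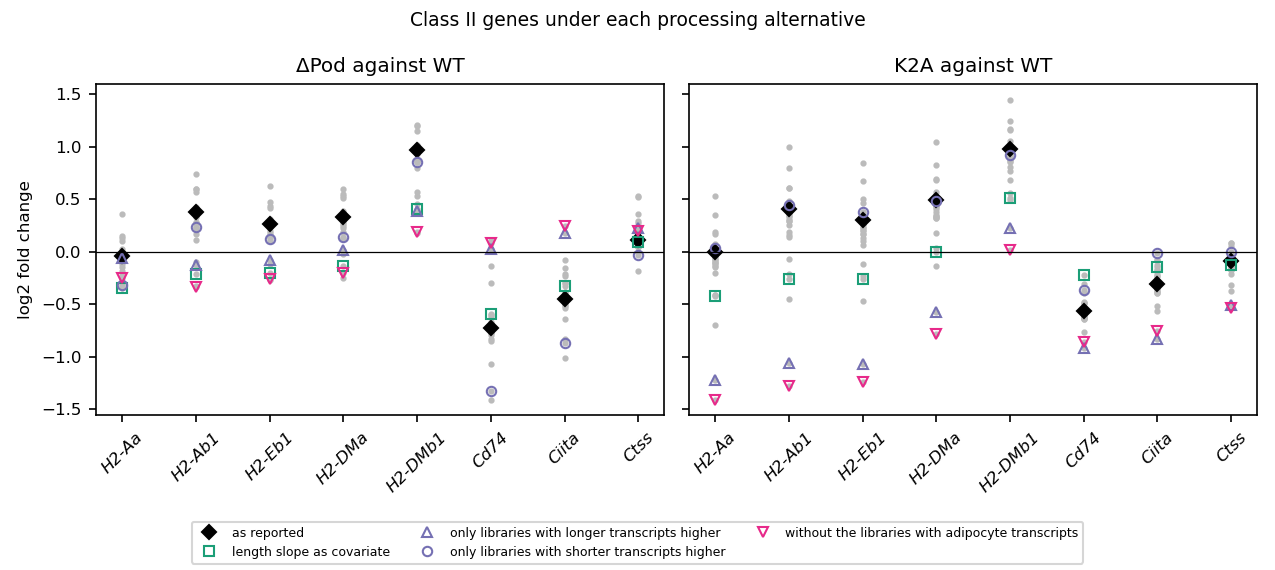
Log2 fold change of each class II gene (vertical axis) in ΔPod (left) and K2A (right) under the 26 processing alternatives (grey points), with the reported value as a black diamond and 4 alternatives marked in colour. H2-DMb1 lies above 0 under every alternative (0.17 to 1.2 in ΔPod, 0.02 to 1.45 in K2A), while H2-Aa, H2-Ab1 and H2-Eb1 lie on both sides of 0.

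Ratios of counts between genes of the same library do not depend on its scaling, and they were compared between libraries with 15 exact two-sided permutation tests. With 3 libraries against 3 such a test cannot give a p below 0.1. These are ratios of counts, not of levels per length, so they compare libraries and not genes. H2-DMb1 over H2-DMa, the chains of a single dimer, stood at 1.55, 1.48 and 1.46 in WT. It stood at 2.76, 2.01 and 1.96 in ΔPod and at 2.05, 1.95 and 2.61 in K2A. All 6 mutant libraries lay above all 3 WT libraries, in both length classes. Means were 1.5 ± 0.05 in WT, 2.24 ± 0.452 in ΔPod and 2.20 ± 0.358 in K2A (SD, n = 3). The exact permutation p was 0.1 for each mutant group, 0.3 after Benjamini-Hochberg adjustment. How often ratios of other gene pairs separate in this way was not counted. H2-DMa has 3448 bases of exon, against 1681 in H2-DMb1, and the split of reads between H2-DMb1 and H2-DMb2 is uncertain. The part of length and of that split in this ratio was not tested.

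H2-Ab1 over H2-Aa, the chains of I-A, stood at 1.14, 1.19 and 1.15 in WT, at 2.06, 1.49 and 1.1 in ΔPod and at 1.62, 1.55 and 1.28 in K2A. K2A lay above WT in all 3 libraries (exact permutation p = 0.1, adjusted 0.3), and ΔPod overlapped WT through ΔPod 3. H2-Eb1 over H2-Aa did the same, at 0.977 to 1.02 in WT, 0.988 to 1.47 in ΔPod and 1.11 to 1.25 in K2A (exact permutation p = 0.3 for ΔPod and 0.1 for K2A, adjusted 0.5 and 0.3). H2-Aa has a GC content of 46.5%, against 57.3% in H2-Ab1 and 51.8% in H2-Eb1, and 3798 bases of exon against 2568 and 1944. The part of composition and length in these ratios was not tested.

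Cd74 over the sum of the antigen-binding chains stood at 0.851, 0.518 and 0.804 in WT, at 0.0913, 0.307 and 0.899 in ΔPod and at 0.326, 0.327 and 0.950 in K2A. The ratio was 0.804 or more in the 4 libraries with more counts on longer transcripts and 0.518 or less in the other 5, whatever the genotype. Within each class the mutant libraries with relatively long transcripts lay slightly above WT, and those with relatively short transcripts lay below WT 2. Ctss over Cd74 stood at 0.0665, 0.0763 and 0.0615 in WT, at 0.260, 0.165 and 0.0736 in ΔPod and at 0.102, 0.0925 and 0.0849 in K2A. K2A lay above WT in all 3 libraries (exact permutation p = 0.1, adjusted 0.3), and ΔPod overlapped WT through ΔPod 3 (exact permutation p = 0.2, adjusted 0.5).

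**Figure D5:**
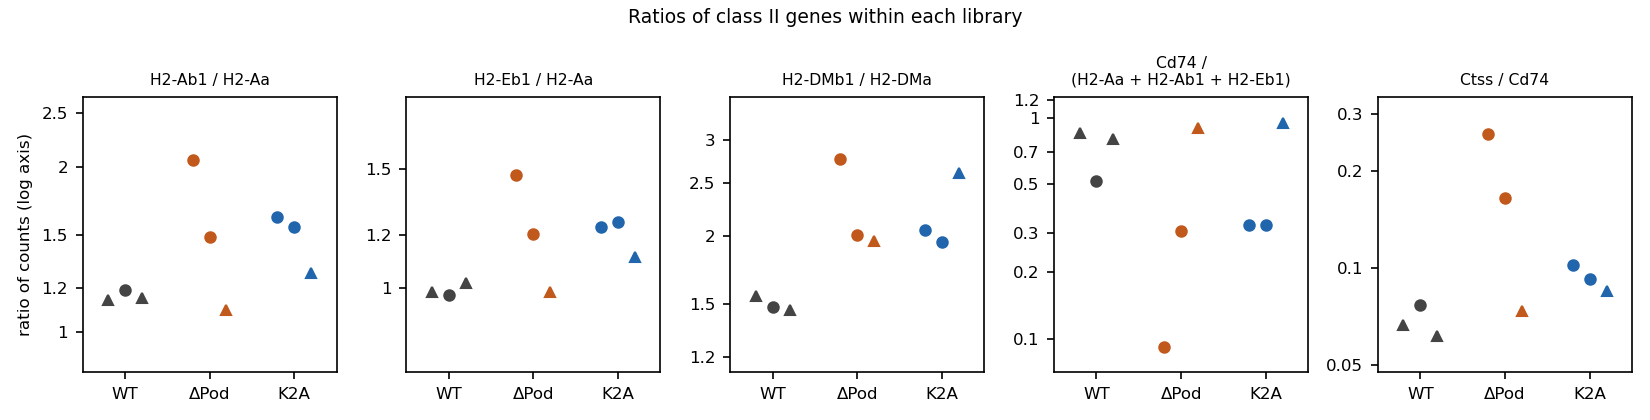
Ratios of counts between class II genes within each library (vertical axes, log scale), by group, with triangles for libraries with more counts on longer transcripts and circles for the rest. For H2-DMb1 over H2-DMa the 3 WT libraries lie at 1.46 to 1.55 and the 6 mutant libraries at 1.95 to 2.76.

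Of the class II genes outside the 8, 3 of 6 symbols could be tested and 0 passed in any comparison. H2-Ob stood at 0.943, 1.69 and 0.914 CPM in WT, at 3.65, 2.81 and 0.947 CPM in ΔPod and at 3.13, 2.19 and 0.508 CPM in K2A (log2 fold changes of 1.06 with SE 0.70 and 0.71 with SE 0.70). Of 7 factors that bind class II promoters, 0 passed. Rfxank, a subunit of the X box factor RFX, stood at 13.2 to 15.9 CPM in WT, 14.8 to 27.6 CPM in ΔPod and 18.4 to 22.5 CPM in K2A. Nfya, a subunit of the Y box factor NF-Y, stood at 23.2 to 28.2 CPM in WT, 10.5 to 21.7 CPM in ΔPod and 20.7 to 31.5 CPM in K2A.

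Of 10 endolysosomal protease and turnover genes, 0 passed in either genotype. The smallest p-value was that of Ifi30, the thiol reductase that opens disulfide bonds of antigens in endosomes. It stood at 64.0, 59.6 and 61.7 CPM in WT, at 21.6, 38.5 and 38 CPM in ΔPod and at 36.9, 39.7 and 50.5 CPM in K2A. Neither mutant group overlapped WT, as for 18.2% of tested genes in ΔPod and 20.1% in K2A. Its log2 fold changes were -0.92 (SE 0.30, edgeR adjusted p = 0.262) in ΔPod and -0.54 (SE 0.30, adjusted p = 0.592) in K2A. Of 9 interferon gamma signalling genes tested, 0 passed. Irf1, an activator of Ciita, stood at 11.4 to 15.7 CPM in WT, 15.1 to 19.4 CPM in ΔPod and 11.2 to 25.8 CPM in K2A. The smallest p-value of that list was that of Irf8, at 10.2 to 15.6 CPM in WT, 18.3 to 22.1 CPM in ΔPod and 14.8 to 23.3 CPM in K2A. ΔPod did not overlap WT, as for 18.2% of tested genes, and K2A did. The log2 fold changes of Irf8 were 0.60 (SE 0.30, edgeR adjusted p = 0.390) in ΔPod and 0.39 (SE 0.30, adjusted p = 0.732) in K2A.

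The MHC class I pathway, which presents peptides from inside the cell and shares interferon control with class II, was set beside it. Of its 14 genes 0 passed in any comparison. Pdia3, a chaperone of the peptide-loading complex, stood at 607 to 669 CPM in WT, 422 to 515 CPM in ΔPod and 319.9 to 348 CPM in K2A. Neither mutant group overlapped WT, as for 18.2% of tested genes in ΔPod and 20.1% in K2A. Its log2 fold changes were -0.43 with SE 0.23 and -0.93 with SE 0.23 (edgeR adjusted p = 0.404 and 0.137). B2m, the light chain of class I, stood at 195 to 215 CPM in WT, 151 to 249.6 CPM in ΔPod and 243 to 337 CPM in K2A. Among costimulation genes, Cd86 stood at 0.887, 2.32 and 1.14 CPM in WT, at 7.56, 5.06 and 1.45 CPM in ΔPod and at 4.65, 3.68 and 0.871 CPM in K2A. Its libraries 1 and 2 of both mutant groups lay above WT, and 0 of the 4 tested genes of that list passed.

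None of the lists of markers of the cells that make class II proteins held a gene that passed in either genotype. Macrophage markers, 15 genes, summed to 152 to 199 CPM in WT, to 375, 376 and 167 CPM in ΔPod 1, 2 and 3 and to 324, 231 and 114 CPM in K2A 1, 2 and 3. Dendritic cell markers, 11 genes, summed to 12.6 to 16.1 CPM in WT, 18.4 to 22.4 CPM in ΔPod and 13.4 to 22.9 CPM in K2A. Much of the macrophage sum in ΔPod 1 and 2 was Lyz2, the lysozyme of myeloid cells, at 188 and 159 CPM there against 14.9 to 41.6 CPM in WT. Without Lyz2 the list summed to 187, 217 and 154 CPM in ΔPod, 137 to 158 CPM in WT and 107 to 215 CPM in K2A. Csf1r, the receptor for a macrophage growth factor, was chosen here after its values were seen. It stood at 35.8 to 66.6 CPM in WT, at 3.87, 20.4 and 56.1 CPM in ΔPod and at 15.8, 14.5 and 55.8 CPM in K2A. The lowest library for the macrophage list was K2A 3, as it was for the antigen-binding chains, though not for Csf1r.

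B cell markers, 10 genes of which 6 were tested, summed to 8.72 to 12.8 CPM in WT, 9.40 to 10.6 CPM in ΔPod and 5.03 to 15.1 CPM in K2A. T cell markers, 9 genes, summed to 7.46 to 10.3 CPM in WT, 9.87 to 21.0 CPM in ΔPod and 4.67 to 17.4 CPM in K2A. Pan-leukocyte genes summed to 55.0 to 71.2 CPM in WT, 63.5 to 95.9 CPM in ΔPod and 35.6 to 124 CPM in K2A. By these sums K2A 3 was again the lowest for the T cell, B cell and pan-leukocyte lists. K2A 1 had the highest B cell and pan-leukocyte sums, and it was also the highest library for H2-Aa. Much of the B cell sum in K2A 1 was the gene Ighm, at 9.92 of 15.1 CPM. Log2 CPM minus the mean of the 9 libraries was also averaged over the B cell genes. That average was 0.51 in WT 2 and 0.28 in WT 1, above 0.19 in K2A 1. Every dendritic cell, macrophage, T cell and pan-leukocyte gene had counts in all 9 libraries, while Pax5 and Fcer2a of the B cell list had none in ΔPod 1, K2A 1 and K2A 2, and Fcer2a none in ΔPod 3. The part of leukocyte content in the class II levels was not tested.

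Zbtb46, a transcription factor of conventional dendritic cells that endothelium also makes, stood at 4.38, 4.90 and 4.47 CPM in WT, at 6.80, 7.62 and 8.44 CPM in ΔPod and at 7.90, 6.05 and 9.0 CPM in K2A. Neither mutant group overlapped WT, as for 18.2% of tested genes in ΔPod and 20.1% in K2A. K2A 3 was its highest library, unlike the class II genes. The log2 fold changes were 0.73 (SE 0.26, edgeR adjusted p = 0.301) and 0.74 (SE 0.26, adjusted p = 0.325). Of the 11 dendritic cell markers, 7 had a positive log2 fold change in ΔPod and 8 in K2A, and the rest were negative. Cd14, a macrophage coreceptor for lipopolysaccharide, stood at 4.20 to 5.93 CPM in WT, 6.17 to 10.1 CPM in ΔPod and 7.48 to 12.7 CPM in K2A. Neither group overlapped WT, and Cd14 did not pass edgeR's test (adjusted p = 0.358 and 0.239). Of the 15 macrophage markers, 12 had a positive log2 fold change in ΔPod and 10 in K2A, and the rest were negative.

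Likeness was measured by Pearson's r over the 9 libraries with the mean log2 CPM of H2-Aa, H2-Ab1, H2-Eb1, H2-DMa, H2-DMb1 and Cd74, among 13125 genes. Cd74 did not share the pattern of that mean. Relative to the average of the 9 libraries, ΔPod 1 stood at 0.07 for the mean, -1.97 for Cd74 and 0.99 for H2-DMb1. WT 1 stood at -0.16 for the mean and 0.68 for Cd74. The first was Cxcl9, a chemokine induced by interferon gamma, with r = 0.99. It stood at 1.97, 4.21 and 1.98 CPM in WT, at 3.11, 4.08 and 2.5 CPM in ΔPod and at 7.47, 4.74 and 0.605 CPM in K2A. Like the antigen-binding chains, it was highest in K2A 1 and lowest in K2A 3. Tgtp2 and Ifitm3, also known as interferon-induced genes, had r = 0.98 each, as did Mmp11. Cmpk2 and Dnal4 had r = 0.97, Lmo2, Lsp1 and Pomk 0.96 and Thy1, a surface protein of T cells, 0.95. These correlations are descriptions over 9 libraries that fall into a pair of classes by transcript length and share that split.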

How the data were processed

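Whole-kidney RNA of WT, ΔPod and K2A mice was sequenced in 3 libraries per group. Per the labels' protocols, mRNA was purified on beads and the ScriptSeq v2 kit was used to prepare libraries. The deposited values are whole-number counts per gene symbol, not normalized, in a table of ΔPod with WT and a table of K2A with WT. Per the submitters' processing notes, the tools were STAR 2.7.3a, featureCounts 2.0.1, Trim Galore 0.6.3, DESeq2 1.30.0, FastQC 0.11.9 and MultiQC 1.10.1, with the build mm10 and no role given for each. How featureCounts treated strand and multi-mapping reads is not given in the sources used here. The tables held 52182 and 52169 symbols. They shared 52163, and 3 with unequal WT counts were left out.

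The count tables were fitted in edgeR 4.0.16 under R 4.3.3 (filterByExpr, TMM factors, quasi-likelihood test, all 9 libraries in a single fit by group) with Benjamini-Hochberg adjustment over 18067 genes at a false discovery rate of 0.05. Log2 CPM used a prior count of 2. RPKM used the union of exons in the GENCODE annotation of mm10. The slope of each library on log2 transcript length was taken over the 17596 tested genes (97.4%) with a unique length. The test was checked on simulated counts drawn without the split of libraries by transcript length, so the check does not cover that split. Alternatives were DESeq2 1.42.0, limma-voom (limma 3.58.1), other scalings and filters, covariates for length and GC, subsets of libraries, a replicate block and leaving out each library.

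The genes and lists were chosen with earlier results of these data known. All 8 class II genes are named. Of every other list, genes called in any comparison could be named, and otherwise up to 3 with the smallest unadjusted p against WT. H2-Ea, Csf1r, Ighm, Pax5, Fcer2a, Fabp4 and Cfd were named outside this rule, after their values were seen. The 10 genes most like the mean of 6 class II genes were taken among genes whose mean log2 CPM was 1 or more. Since the labels do not say that libraries came from separate animals, p-values measure the spread between libraries, which may be technical.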

Additional observations from a re-analysis of the deposited data

How the results depend on the processing

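Across 26 alternatives, 4 of them chosen after seeing the data, 0 of the 8 genes passed in ΔPod under 25 and the exception was limma-voom with sample weights, which called 8 in ΔPod, 6 in K2A and 3 in K2A against ΔPod. Its weights ran from 0.083 in K2A 3 to 11.6 in ΔPod 2, it called 78.9% of all genes in ΔPod, 78.9% in K2A and 28.0% in K2A against ΔPod, and under it H2-Aa stood at 0.36 in ΔPod and 0.53 in K2A, past the threshold. Limma-voom without sample weights called 0 of the 8. The length slope as a covariate called 1 of the 8 in K2A (H2-DMb1) and 15.8% of all genes, and length and GC slopes together called 2 (H2-Aa at -0.70 and H2-DMb1 at 0.49) and 26.2% of all genes. A fit of only the libraries with more counts on longer transcripts called 5 in K2A against WT, where it called 31.0% of 18228 genes, and 5 in K2A against ΔPod, where it called 9.2%. It has 1 library in each mutant group. In it K2A stood below WT at -1.06 for H2-Ab1, -1.07 for H2-Eb1 and -0.57 for H2-DMa, and below ΔPod at -1.16 for H2-Aa, -0.94 for H2-Ab1, -0.99 for H2-Eb1 and -0.94 for Cd74, each opposite in sign to the fit of all libraries. The cause was not tested.

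Leaving out any library in turn left 0 of the 8 past the threshold in each comparison. The labels do not say that replicate numbers pair the samples with WT. Deviations of same-numbered libraries from their group means correlated at -0.62, 0.441 and 0.715 for ΔPod and at -0.545, 0.755 and 0.706 for K2A. Those of ΔPod 1 and WT 2, both with more counts on shorter transcripts, correlated at 0.803. Such values share the split by transcript length and cannot show whether samples were paired. With the replicate number as a block, 0 of the 8 passed in each comparison, and the whole table gave 122 genes higher and 148 lower in ΔPod and 103 and 129 in K2A, against 72 and 106 and 58 and 95 without it. Between K2A and ΔPod the numbers correlated at 0.76, 0.403 and 0.85, and the block changed no call. DESeq2 called 418 genes higher and 353 lower in ΔPod and 384 and 369 in K2A, with 0 of the 8 among them. Upper-quartile scaling shifted the median over all genes to log2 fold changes of 0.26 (ΔPod) and 0.24 (K2A). Depth limits Ciita most, with 49 to 215 counts per library.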
